A study of Mus musculus with 131 samples.

Results

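The host cells of mouse blastocysts that held the most Cdx2 and Eomes RNA were compared with those that held the least. The cells were chosen by their measured Cdx2 and Eomes values: each cell with at least 4000 detected genes was scored by its mean log2(CPM + 1) of both genes, where CPM is a gene's reads after scaling the cell to a total of 1000000 reads. The 11 cells with the highest score are called high cells and the 11 with the lowest score low cells, together 22 of the 40 GFP cells. A further 12 cells lay between them, and 6 cells fell below the detection minimum. Cdx2 and Eomes chose the groups, so their levels are given as a description, and every other value leaves both genes out. The ranking used the same cells that are compared. No label names the embryo a cell came from, so each group was treated as 1 sample, no test was run, and ranges and SDs over cells describe only the spread between cells. The last ranked cell by detection, GFP cell 34, had 4275 detected genes and the first one left out, GFP cell 4, had 3815.

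The trophectoderm is the outer epithelium of the blastocyst and gives rise to the placenta. Its polar part covers the epiblast and keeps dividing under FGF signals from it, while its mural part encloses the cavity, stops dividing and forms giant cells. CDX2, a homeobox factor, and EOMES, a T-box factor, are transcription factors of the trophectoderm and of trophoblast stem cells, and both persist longest on the polar side. Whether the high and low cells differ like polar and mural trophectoderm was the question of the comparison.

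The series holds 131 samples from work on embryos reconstructed with embryonic stem cells. The GFP cells are single cells of E4.0 blastocysts of strain C57BL/6J that carry an Actin-GFP transgene. In the design text, Actin-RFP stem cells were put into Actin-GFP embryos, so GFP marks the host. The 55 RFP cells of the same stage carry an Actin-RFP transgene and served only as background here. Every cell was picked with a micromanipulator and its full-length cDNA was amplified without molecular identifiers. The high cells held 4253800 to 7998644 reads each and the low cells 3964950 to 8315062, and the groups summed to 66765861 and 64229314 reads. The share of mitochondrially encoded reads was 2.19 to 4.16% in high cells and 2.49 to 4.44% in low cells. Y-linked genes summed to at least 10 CPM in 8 of 11 high cells and 9 of 11 low cells.

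Cdx2 and Eomes RNA varied nearly independently among the host cells. In the high cells Cdx2 ran from 3.64 CPM to 198 CPM with a median of 50.01 CPM, and in the low cells from 0 to 2.97 CPM with a median of 0.34 CPM. Eomes ran from 3.02 CPM to 214 CPM in the high cells, with a median of 92.6 CPM, and from 0 to 24.4 CPM in the low cells, with a median of 0.92 CPM. A cell listed at 0 could hold up to 0.361 to 0.757 CPM among the low cells, the level of 3 reads. This limit covers counting error only and takes each read as independent. Cdx2 thus separated the groups completely, while the Eomes levels of the groups overlapped. The score was 4.50 in the last high cell, GFP cell 28, against 3.80 in the first cell outside, GFP cell 7. At the lower limit GFP cell 40 entered the low group at 2.39 and GFP cell 22 stayed outside at 2.40.

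A high score did not require both genes. At 10 CPM or more, 8 of the 34 ranked cells held both genes, and these 8 were all high cells. A further 6 cells held Cdx2 alone (1 high and 5 middle cells), 13 held Eomes alone (2 high, 7 middle and 4 low cells) and 7 held neither, all of them low. GFP cell 28 held 127 CPM of Cdx2 and 3.02 CPM of Eomes, while GFP cell 18 held 3.64 CPM of Cdx2 and 127 CPM of Eomes. Across the 34 cells, which share their preparation, the Spearman correlation of the 2 genes was 0.124. In RFP cells, which descend from stem cells of the epiblast, a Cdx2 read was found in 2 of 55 cells, at no more than 3.93 CPM, and an Eomes read in 9 of 55. Among the 34 ranked host cells 28 had a Cdx2 read and 27 an Eomes read. Cdx2 spans chromosome 5 from 147300900 to 147307249 and Eomes chromosome 9 from 118478186 to 118486132 (GRCm38.p6).

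**Figure D1:**
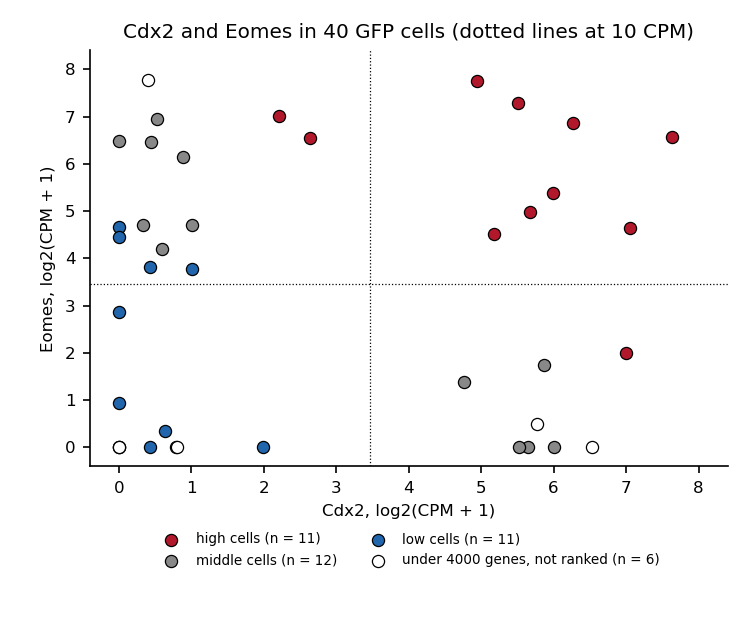
Cdx2 against Eomes in each of the 40 GFP cells, both as log2(CPM + 1), coloured by group, with open circles for the 6 cells under 4000 detected genes and dotted lines at 10 CPM. All 8 cells above both lines are high cells, and cells with a high level of 1 gene alone lie along both axes.

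High and low cells carried trophectoderm RNA at similar levels. The trophectoderm identity list holds 17 genes, of which 16 were in the table, and the level of a list in a cell is its mean log2(CPM + 1). That level ran from 5.82 to 7.36 in high cells (median 6.69), from 6.09 to 7.19 in middle cells (median 6.48) and from 5.84 to 7.27 in low cells (median 6.39). In RFP cells the median was 0.956 and the highest value 3.60. All ranked cells therefore lay above all RFP cells on this list, and the 3 host groups overlapped over nearly their whole range. Gata3, a transcription factor of the lineage, ran from 173 to 1773 CPM in high cells (median 592 CPM) and from 329.5 to 1186 CPM in low cells (median 813 CPM). Krt8, a keratin of the epithelium, ran from 999.6 to 5121 CPM (median 2803 CPM) against 1069 to 5701 CPM (median 2367 CPM). Both genes overlapped fully between the groups.

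No other listed marker of polar or mural trophectoderm that could be compared was 2-fold apart, in lists too short for that count to say much. A gene counted as at least 2-fold apart where 2 measures agreed in direction and were both at least 1 on the log2 scale. The first is the log2 ratio of the summed CPM + 1 of the groups, and the second the difference of the cell means of log2(CPM + 1). Genes entered with at least 10 CPM in a group and a read in at least 50% of its cells. By this rule 906 of 5758 genes (15.7%) were apart, 506 (8.79%) higher and 400 (6.95%) lower in high cells. With so few members past the filter, a count of 0 is near that share over all genes. Of the 19 measured polar and trophoblast stem genes, 5 passed the filter and 0 were apart. Of the 16 measured mural and giant cell genes, 8 passed and 0 were apart, and of the 16 trophectoderm identity genes, 13 passed and 0 were apart. The median log2 ratio of the members that passed was 0.15 for the polar, -0.35 for the mural and 0.20 for the identity list, beside 0.01 over all 5758 genes. By the difference of cell means, 4 of the 5 polar genes were higher and 6 of the 8 mural genes lower in high cells, the direction of Cdx2 and Eomes, and by the summed ratio 3 of 5 were higher and 5 of 8 lower. The sign of the polar and mural medians changed with the ranking: it was -0.28 for the polar list when Cdx2 alone ranked the cells and 0.60 for the mural list when Eomes alone did.

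Most polar genes on the list, 14 of 19, were read in too few cells or at too low a level in both groups to pass the filter. Fgfr2, the receptor through which the epiblast's FGF4 reaches the polar cells, ran from 0.47 to 205 CPM in high cells (median 44.2 CPM) and from 0 to 227.5 CPM in low cells (median 79.2 CPM). Id2, a target of BMP signals, had medians of 1501 CPM in high cells, 1061 CPM in middle cells and 804 CPM in low cells, within ranges of 252.5 to 3961 CPM and 332 to 3247 CPM for the high and the low cells. Ly6a and Ddah1, markers of trophoblast stem cells or of the polar side in the list, summed to 250.4 and 1113 CPM in high cells against 324 and 1002 CPM in low cells. Elf5, Sox21, Bmp4 and Nat8l summed to less than 1 CPM in both groups, with single cells of up to 11.1 CPM for Elf5. Ets2, a factor needed for trophoblast stem cells, did not pass the filter and was at 10 CPM or more in 4 of 11 high cells, 6 of 12 middle cells and 1 of 11 low cells. Its middle cells were detected most often, so its detection did not follow the score in order. The list level ran from 1.72 to 3.79 in high cells and from 1.48 to 2.99 in low cells, with medians of 2.25 and 2.21.

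Among the 8 mural genes that passed, the cell means were lower in high cells for 6 and higher for Bhlhe40 and Slc2a1. Lgals3, a galectin listed for the mural side, ran from 0 to 342 CPM in high cells (median 16.96 CPM), had a median of 119 CPM in middle cells and ran from 3.42 to 207 CPM in low cells (median 114 CPM). Its cell means differed by -2.08, while its summed log2 ratio was -0.42, so it did not count as apart. Ctsl, a lysosomal protease of giant cells, ran from 233 to 631 CPM in high cells and from 96.1 to 1194 CPM in low cells. Cdkn1c, a cell cycle inhibitor of giant cells, did not pass the filter and reached 10 CPM in 0 of 11 high cells, 3 of 12 middle cells and 4 of 11 low cells. Flt1 had no read in either group, and Hand1, Prl3d1, Prl2c2 and Mmp9 were not measured here. The list level ran from 0.916 to 4.68 in high cells and from 1.82 to 4.12 in low cells, with medians of 2.32 and 2.90. The list levels overlapped, so the groups are called high and low cells and not polar and mural cells.

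**Figure D2:**
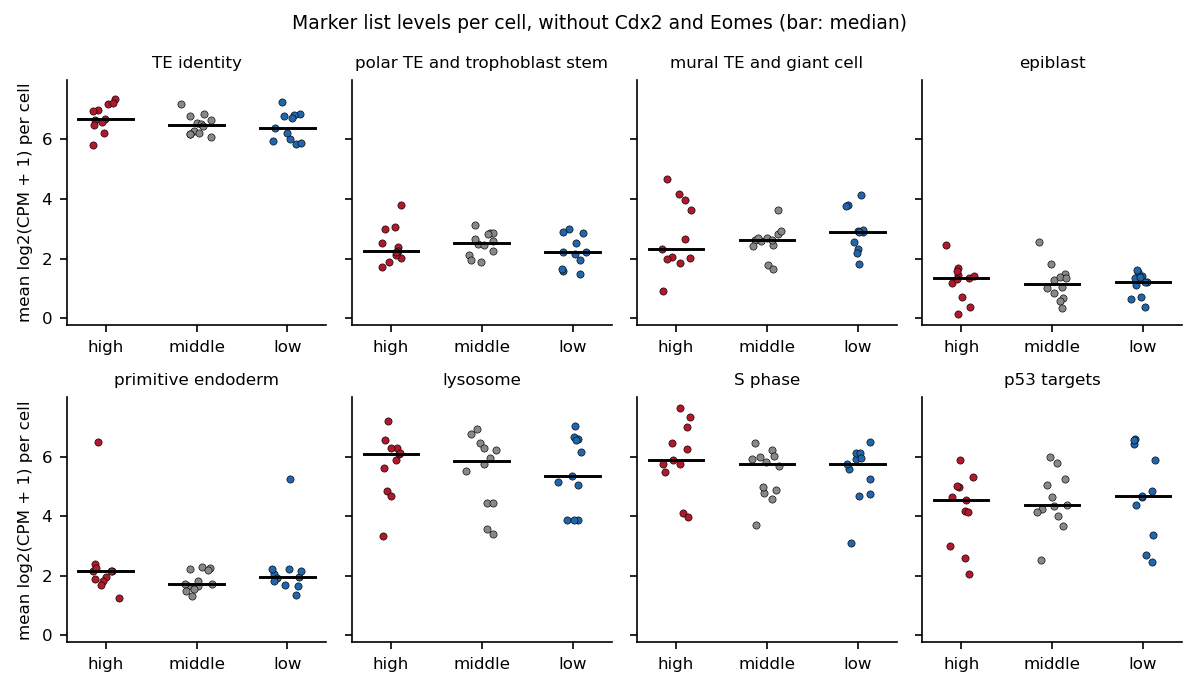
Mean log2(CPM + 1) of 8 gene lists in each high, middle and low cell, without Cdx2 and Eomes, with a bar at the median of each group. The groups overlap in every panel, and a single high cell and a single low cell stand apart on the primitive endoderm list.

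A single cell in each group also carried primitive endoderm RNA. GFP cell 36, a high cell, had a primitive endoderm list level of 6.499 beside a trophectoderm level of 6.497, and GFP cell 39, a low cell, had 5.26 beside 6.03. The other 20 compared cells lay at 2.40 or below on the endoderm list. Sox17 and Sox7, factors of that lineage, had reads in 1 high cell, at 58.0 and 91.5 CPM, and none in low cells. Pdgfra, a receptor of the lineage, reached 10 CPM in 1 high and 1 low cell. Of the 17 endoderm genes 6 passed the filter, too few to be told from the 15.7% of all genes apart. Lama1, a laminin chain, was higher in high cells at 34.1 against 11.02 CPM and the other 5 were not apart. Without GFP cell 36 its log2 ratio of 1.55 became 0.86, and with cells 36 and 39 both left out it was 4.42. Epiblast levels ran from 0.142 to 2.46 in high cells and from 0.371 to 1.63 in low cells, with 3 of 14 genes past the filter and 0 apart. All 5 measured genes of feeder fibroblasts and all 5 of oocytes failed the filter, and the median level of both lists was 0 in both groups. With cells 36 and 39 left out, 655 genes were higher and 475 lower. Of the higher and lower genes reported, 444 and 349 were still apart without both cells, and the polar and mural list medians were 0.14 and -0.44. Lgmn and Tjp1, list members described further on, were no longer apart without them, at log2 ratios of 0.83 and -1.69. For Tjp1 the cell means were then less than 1 apart.

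Genes read in few cells were apart more often than genes read in many. Of the genes with a read in 6 to 11 of the 22 cells 42.1% were apart, of those read in 12 to 16 cells 21.4%, of those read in 17 to 21 cells 10.9%, and of those read in all 22 cells 1.47%. The filter shaped this in part: a gene read in few cells could pass only by being detected in 50% or more of 1 group, which for the rarest genes is mostly the group where it was high. The genes apart had a read in a median of 13 cells, against 18 cells for all genes that passed. Of the 506 higher genes 448 had a read in more high than low cells, and of the 400 lower genes 343 had a read in more low than high cells. In 130 of the 906 genes a single cell held over 50% of the reads of the higher group. For none of the 5758 genes (0%) did the values of the high cells lie wholly above or below those of the low cells. The mean of the middle cells lay between those of the groups for 548 of the 906 genes and outside them for 358. The middle cells were not used in the contrast, but the score ranked them too.

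Gene detection itself differed little between the groups. High cells had 4315 to 7645 detected genes (median 5770.0) and low cells 4275 to 7189 (median 5437). After each cell was thinned to 500000 reads the medians were 5281 and 4811. The ranges overlapped almost wholly at both depths. The Spearman correlation of the score with the number of detected genes was 0.117 over the 34 ranked cells, and 0.118 after thinning. The counts of genes apart still moved with detection. Among the 9 high and 10 low cells within the range of detected genes that the groups share, 404 genes were higher and 720 lower. With cells down to 2000 detected genes admitted to the ranking, the median of the low cells was 4504 genes, and 968 genes were higher and 176 lower.

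**Figure D3:**
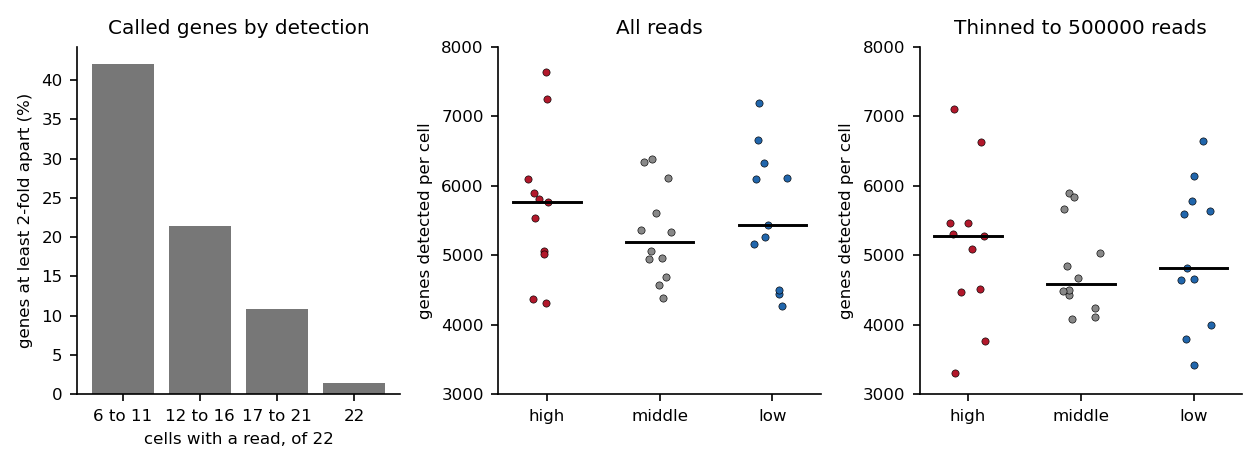
Left, percent of genes at least 2-fold apart by the number of the 22 compared cells with a read; middle and right, genes detected in each cell with all reads and after thinning to 500000 reads, with a bar at the group median and an axis that starts at 3000. The percent falls from 42.1 to 1.47 as genes are read in more cells, while the groups overlap in genes detected.

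Plin3 was the gene with the clearest difference among those read in every cell. These genes number 1363, of which 7 (0.514%) were higher and 13 (0.954%) lower in high cells. The 19 of them described here lie outside the rule for named genes and were chosen after their values were seen. Plin3, a perilipin that coats lipid droplets (chromosome 17 from 56278962 to 56290511), ran from 60.5 to 387 CPM in high cells with a median of 215 CPM. It had a median of 123 CPM in middle cells and ran from 3.66 to 115 CPM in low cells with a median of 54.3 CPM. The high and low cells overlapped between 60.5 and 115 CPM, and the middle median lay between those of the groups. The summed levels were 219 CPM (exact 95% Poisson interval 215 to 222) and 54.1 CPM (52.3 to 55.9), a log2 ratio of 1.99. These intervals cover counting error only, as if each read were independent, and are far narrower than the spread between cells. The recovered Cdx2 count was even in every GFP cell, so reads may not be independent and the intervals may be too narrow. The difference in Plin3 stayed past the threshold under all 15 other processing choices and with each of the 22 cells left out in turn.

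Hspa5, the main chaperone of the endoplasmic reticulum, ran from 258 to 1613 CPM in high cells (median 549.6 CPM) and from 11.8 to 546 CPM in low cells (median 249 CPM), a log2 ratio of 1.13. Its groups overlapped, and without GFP cell 33 or 38 it no longer counted as apart, at log2 ratios of 0.81 and 1.03, the latter with a difference of cell means of 0.94. Golt1b, a protein of transport from the endoplasmic reticulum to the Golgi, was lower in high cells, with 35.1 to 439 CPM (median 161 CPM) against 52.96 to 1221 CPM (median 602 CPM) and a log2 ratio of -1.66. Its middle cells had a median of 356 CPM. Mier3, a chromatin regulator at 109 against 339 CPM, and Crk, a signalling adaptor at 63.8 against 169 CPM, were lower too. Plin3, Golt1b, Mier3 and Crk kept the difference with each cell left out in turn, and the other 15 of the 19 lost it without at least 1 cell. The higher genes among those 15 were Hspa5, Esco2, Kif2a, Ankrd11, Safb and Cnot4, with log2 ratios of 1.01 to 1.50. The lower ones were Tes, a protein of focal adhesions, Ddx1, Wapl, Armc1, Rwdd4a, Scnm1, Zfp622, Gatad1 and Purb, with log2 ratios of -1.02 to -1.24. Leaving out GFP cell 18 ended the difference in 12 of the 15 genes, and GFP cell 34 or 31 in 9 each. Kif2a, a kinesin of the spindle, lost it only without GFP cell 18 (0.93), Ddx1 without GFP cell 18 or 34 (-0.95 to -1.002) and Gatad1 without GFP cell 31 or 34 (-0.83 and -1.09). Where the log2 ratio of Ddx1 or Gatad1 stayed past 1 in size, the cell means were less than 1 apart. Leaving Hspa5 aside, the other 11 genes had 4 to 12 such cells, with log2 ratios no nearer to 0 than 0.51 in Cnot4 among the higher and -0.67 in Scnm1 among the lower genes.

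The 15 genes with the highest difference of cell means were read in more high than low cells, which a choice by cell means of genes with many cells at 0 largely fixes. Armc8, a subunit of a ubiquitin ligase, ran from 0 to 914 CPM in high cells with a median of 85.2 CPM, and from 0 to 196.5 CPM in low cells with a median of 0. It had a read in 10 of 11 high cells, 8 of 12 middle cells and 3 of 11 low cells, and a single high cell held 54.4% of its summed reads. Trmt2a, which methylates uridine in tRNA, was at 10 CPM or more in 9 high, 4 middle and 1 low cell, with medians of 73.0 CPM in high cells and 0 in low cells. Tmx1, a disulfide isomerase of the endoplasmic reticulum, was at that level in 9 high, 4 middle and 4 low cells. Rufy3, an adaptor of organelle transport, had a median of 72.9 CPM in high cells and 0 in low cells. Dhx8, a helicase of the spliceosome, ran from 0 to 205 CPM in high cells (median 67.7 CPM) and from 0 to 17.3 CPM in low cells, and 9 of the 12 middle cells held 10 CPM or more. These 5 genes had summed log2 ratios of 2.63, 2.83, 2.78, 3.40 and 4.28 and stayed apart under all 15 other choices. In each of them at least 1 high cell was at 0, so the groups overlapped.

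The other 10 of these higher genes had log2 ratios of 1.10 to 5.18. Slc19a2, a thiamine transporter, was at 40.9 CPM in high cells and 0.156 CPM, from 10 reads, in low cells. Osgep acts in tRNA modification, Nae1 starts the conjugation of NEDD8, Atg3 attaches lipid to LC3 in autophagy, Rad54b acts in recombination and Atic in purine synthesis. Btbd10, Nudcd1, Rabepk and Unc119b completed the set. Nae1 lost the difference without any 1 of GFP cells 9, 10, 11, 17, 18, 19 or 20, at log2 ratios of 0.90 to 0.996.

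The 15 genes with the lowest difference were read in more low than high cells, largely fixed by their choice in the same way. Sec23ip, a protein of sites where cargo leaves the endoplasmic reticulum, ran from 0 to 10.6 CPM in high cells with a median of 0, and from 0 to 212 CPM in low cells with a median of 77.8 CPM. It was at 10 CPM or more in 1 high, 8 middle and 8 low cells, so the middle cells resembled the low ones in its detection. Ptprk, a receptor phosphatase of cell contacts, ran from 0 to 23.6 CPM against 0 to 187 CPM, with medians of 0 and 60.1 CPM. Rad51ap1, a protein of homologous recombination, had medians of 0 and 46.8 CPM. Their log2 ratios were -5.45, -4.26 and -2.03, and these 3 stayed apart under all 15 other choices. Each had low cells at 0, so the groups overlapped here too. Nup160, a subunit of the nuclear pore, had medians of 0 in high cells, 116 CPM in middle cells and 45.5 CPM in low cells, so the middle cells were not between the groups. Zfp51, Ilkap, Krcc1, Pdpn, Yipf5, Ninj1, Mrps22, Pdlim5, Cenpn, Rabgef1 and Arhgap21 made up the rest, at log2 ratios of -1.16 to -3.90. Mrps22 lost the difference without GFP cell 26 or 39, both at a log2 ratio of -0.98, and Arhgap21 without GFP cell 11, at -0.88.

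**Figure D4:**
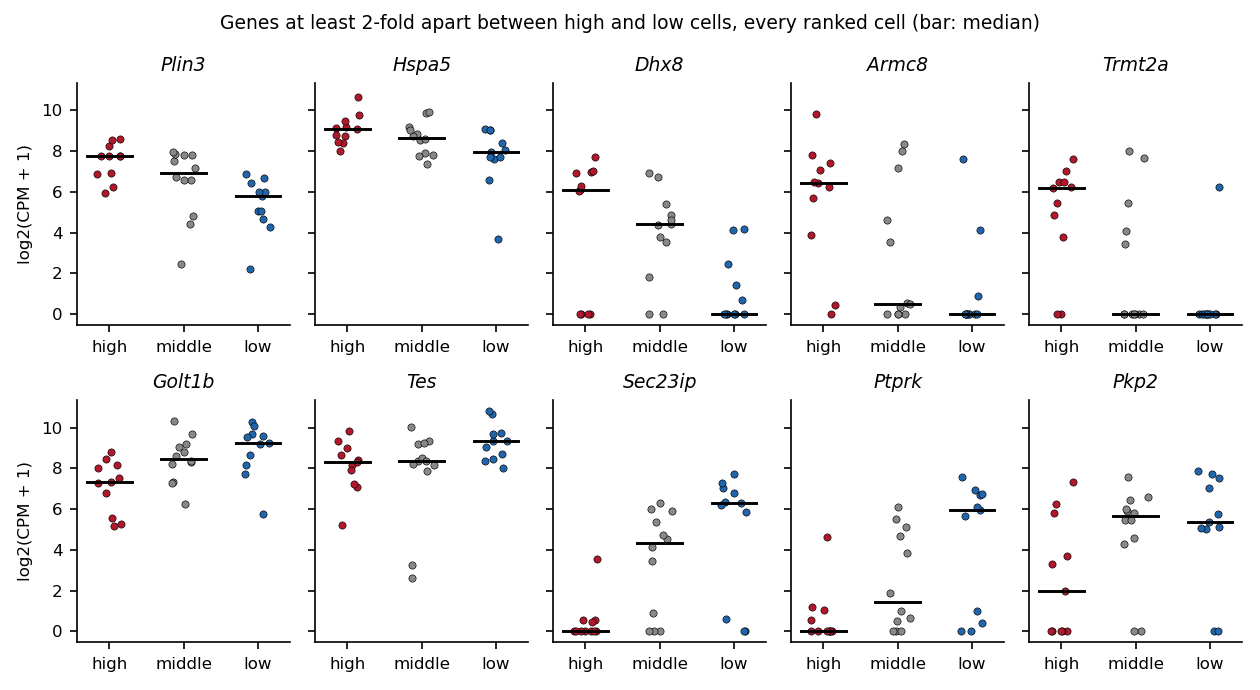
log2(CPM + 1) of 10 genes at least 2-fold apart in every ranked cell, by group, with a bar at the median. Plin3, Hspa5, Golt1b and Tes, read in every compared cell, shift by overlapping amounts, while the other 6 genes are at or near 0 in part of the cells of each group.

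Promoters of 3 genes are printed as examples of windows that hold the letters searched for. RefSeq windows of 300 bases, from 250 before to 50 after a start site in GRCm38.p6, matched 4616 of the 5758 genes by symbol. They were searched on both strands for CCATAAA (CDX2), AGGTGTGA (T-box factors such as EOMES) and GGAATG (TEAD factors, which act upstream of Cdx2), 3 motifs that do not overlap in the windows printed. Armc8 and Ptprk stayed apart under every choice, one higher and one lower, and Mcm3, of the replicative helicase, is a list member that was higher in high cells. Capitals mark the matches, and in the Ptprk window the match is the reverse complement.
Armc8 (higher in high cells), chr9:99568850-99569149, minus strand: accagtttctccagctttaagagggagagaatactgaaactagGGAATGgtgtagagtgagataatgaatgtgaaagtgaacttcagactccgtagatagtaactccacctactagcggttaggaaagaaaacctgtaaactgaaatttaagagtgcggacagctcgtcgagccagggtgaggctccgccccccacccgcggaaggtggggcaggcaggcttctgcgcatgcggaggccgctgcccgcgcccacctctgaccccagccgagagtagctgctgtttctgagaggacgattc
Ptprk (lower in high cells), chr10:28074570-28074869, plus strand: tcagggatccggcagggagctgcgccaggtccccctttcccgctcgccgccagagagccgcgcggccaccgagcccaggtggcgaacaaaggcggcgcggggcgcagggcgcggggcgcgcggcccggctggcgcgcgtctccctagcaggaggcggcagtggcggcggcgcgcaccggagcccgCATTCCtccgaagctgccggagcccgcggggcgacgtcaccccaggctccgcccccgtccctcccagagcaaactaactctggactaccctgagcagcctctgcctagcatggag
Mcm3 (higher in high cells), chr1:20820263-20820562, minus strand: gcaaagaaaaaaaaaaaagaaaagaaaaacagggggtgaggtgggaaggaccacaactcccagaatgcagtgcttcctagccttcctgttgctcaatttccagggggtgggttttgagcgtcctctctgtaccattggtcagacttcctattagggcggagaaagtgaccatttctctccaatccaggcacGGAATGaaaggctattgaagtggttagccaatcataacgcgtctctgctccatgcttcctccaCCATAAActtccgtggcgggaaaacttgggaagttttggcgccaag
The Armc8 match starts 207 bases before the start site and the Ptprk match 65 bases before it. The Mcm3 window holds CCATAAA from 4 bases after the start site and GGAATG before the site. The windows of Cdx2, Eomes, Plin3, Hspa5 and Golt1b held none of the 3 motifs. Other named genes, not printed, also held matches. The reverse complement of AGGTGTGA was in the window of Btbd10, a higher gene. GGAATG or its reverse complement was in windows of Atg3, Mrps22, Nup160, Rabgef1, Uhrf1 and Yap1.

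Matches to CCATAAA and AGGTGTGA were few in the genes apart. CCATAAA was in 2.75% of all 32851 windows, in 1.74% of those of genes that passed the filter, and in 1.68% and 1.49% of those of higher and lower genes, 9 and 6 windows. AGGTGTGA was in 1.28%, 0.758%, 1.12% and 0.248% of the same sets, with 6 and 1 windows among higher and lower genes. GGAATG was in 14.7%, 11.5%, 12.5% and 11.7%. A match says that the letters are present and not that a factor binds there.

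In the Hippo, FGF and BMP lists 2 of 10, 1 of 5 and 1 of 3 members that passed were apart, beside 15.7% of all genes, which lists this short cannot be told from. Among Hippo genes, whose effectors YAP1 and TEAD switch on Cdx2, 10 of 15 passed. Yap1, the coactivator, was higher at 89.3 against 38.7 CPM and Tead1 at 55.8 against 8.58 CPM, 0 were lower, and Tead4 (59.6 and 40.9 CPM) and Amot (35.0 and 39.1 CPM) were not apart. Tead1 was at 10 CPM or more in 4 high and 3 low cells. Without any 1 of 10 cells, GFP cells 6, 9, 11, 17, 19, 31, 33, 34, 36 and 38, its log2 ratio was 1.64 to 2.67 but its cell means were less than 1 apart or the filter failed. Yap1 lost it without GFP cell 6, 9, 16, 33 or 34, at 0.91 to 1.09, with cell means as little as 0.93 apart. Among FGF receptors and feedback genes 5 of 19 passed. Dusp4, a phosphatase that limits ERK, was higher at 16.4 against 3.14 CPM, a difference that ended without GFP cell 31 (log2 ratio 1.12), where it no longer passed the filter, and 0 were lower. Among BMP and Id genes 3 of 14 passed, and Bmpr1a, a BMP receptor, was lower at 91.9 against 211 CPM, or -0.75 on the log2 scale without GFP cell 9 in place of -1.19.

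Of the 21 junction genes 20 passed, 0 were higher and 2 were lower, beside 15.7% of all genes apart. A list this short, not matched for the number of cells that read a gene, cannot be told from that share. Pkp2, a plakophilin of desmosomes, ran from 0 to 160 CPM in high cells with a median of 3.001 CPM, against 0 to 231 CPM in low cells with a median of 40.96 CPM. It had a median of 49.2 CPM in middle cells, so the middle cells were near the low ones, and it stayed apart under all 15 other choices. Tjp1, the tight junction scaffold ZO-1, was lower at 7.85 against 31.2 CPM and lost the difference without any 1 of 8 cells, GFP cells 17, 18, 19, 20, 26, 34, 38 and 39. Its log2 ratio was then still -1.39 to -1.77, but its cell means were less than 1 apart, by as little as 0.77. Cdh1, Dsp, Epcam and Cldn4, further parts of the epithelium, were not apart, at 164, 129, 2264 and 557 CPM in high cells against 248, 219, 1812 and 367 CPM in low cells. Keratins (3 of 4 passed) and genes that fill the blastocoel with fluid (6 of 10 passed) had 0 apart, with Aqp3, a water channel, at 86.6 against 120 CPM.

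Genes of S phase and mitosis had 0 lower and 2 higher members, beside 15.7% of all genes apart. That share fell with the number of cells that read a gene, which was not matched here. The counts therefore cannot set these lists apart from other genes. All 19 S phase genes passed, 15 of them with a positive difference of cell means, and Mcm3 alone was apart, at 138 against 66.0 CPM. Its cells ran from 15.1 to 280.4 CPM (high, median 115 CPM) and from 0 to 276 CPM (low, median 28.7 CPM). Mcm3 lost the difference without any 1 of 9 cells, GFP cells 9, 10, 11, 24, 26, 33, 34, 38 and 40, at log2 ratios of 0.84 to 0.98. The S phase level ran from 3.98 to 7.62 in high cells (5.97 ± 1.17, SD, n = 11 cells) and from 3.099 to 6.49 in low cells (5.43 ± 0.96, SD, n = 11 cells), so the means lay within 1 SD of each other. The median log2 ratio of the list was 0.47, and it ranged from 0.23 to 0.77 over the choices, which share most of their cells. The primitive endoderm median kept its sign too, at 0.26 to 0.82. Of 18 mitosis genes 17 passed and Bub1, a kinase of the spindle checkpoint, was higher at 65.8 against 27.1 CPM, while Ccnb1 (768 and 813 CPM) and Mki67 (135 and 159.5 CPM) were not apart.

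Among 13 p53 targets 11 passed, 2 were lower and 0 higher, beside 15.7% of all genes apart. A list this short cannot be told from that share. Eda2r, a receptor induced by p53, was at 10 CPM or more in 3 high, 4 middle and 9 low cells, with medians of 0 and 66.4 CPM in high and low cells. Trp53inp1, which promotes the p53 response, ran from 0 to 163 CPM in high cells (median 7.05 CPM) and from 0.48 to 386 CPM in low cells (median 103 CPM). Cdkn1a, Mdm2 and Bax, targets that are more often read, were at 790, 459 and 102 CPM in high cells and 639, 257 and 104 CPM in low cells, and none of these 3 was apart. The list level was 4.22 ± 1.19 (SD, n = 11 cells) in high and 4.77 ± 1.49 (SD, n = 11 cells) in low cells, a difference within 1 SD.

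DNA methylation genes went both ways. Of 11 genes 9 passed, with Uhrf1 and Dnmt1, which copy methylation at replication, higher and Dnmt3a, which adds it anew, lower. With 15.7% of all genes apart, a list this short cannot be told from that share. Uhrf1 summed to 33.9 against 9.81 CPM and reached 10 CPM in 5 high, 2 middle and 2 low cells. Without GFP cell 33 its log2 ratio of 1.69 became 0.98. Dnmt1 summed to 38.5 against 18.1 CPM and lost the difference without any 1 of 11 cells, GFP cells 9, 10, 11, 18, 19, 21, 33, 34, 37, 38 and 40, at 0.44 to 0.9998. Dnmt3a summed to 11.8 against 83.1 CPM, with medians of 3.12, 6.76 and 16.7 CPM in high, middle and low cells, and kept the difference with each cell left out. Dppa3, which blocks maintenance methylation, was at 5822 and 4853 CPM and not apart.

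In the remaining lists single genes were apart. Of the 19 lysosome genes 18 passed and Lgmn, a protease, was higher at 101 against 48.4 CPM, a difference that ended without any 1 of GFP cells 6, 10, 11, 19, 28, 33, 34, 36, 38 and 39 (0.67 to 0.99). Phgdh, the first enzyme of serine synthesis, was higher at 63.7 against 10.9 CPM among 6 amino acid stress genes that passed. Ldha, which makes lactate, was lower at 8.45 against 37.2 CPM among 12 glycolysis genes that passed, and lost the difference without any 1 of 9 cells, GFP cells 20, 24, 26, 28, 31, 33, 38, 39 and 40. Its log2 ratio was then still -1.29 to -1.91, but its cell means were less than 1 apart or the filter failed. Sfmbt2, an imprinted Polycomb-related gene needed in trophoblast, was higher at 63.2 against 22.1 CPM, and Zdbf2, another imprinted gene, was lower at 1.66 against 26.5 CPM, of 6 imprinted genes that passed. Immediate early genes (5 of 10 passed) and naive pluripotency genes (7 of 12 passed) had 0 apart. The 76 ribosomal protein genes that passed had 0 apart and a median log2 ratio of 0.03. Over all lists, 19 genes were apart, a smaller share of the members that passed than the 15.7% of all genes. The members were not matched to all genes for the number of cells with a read, on which that share depends. Of these 19 genes, 8 stayed apart with each cell left out in turn.

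The genes apart depended on which of the 2 markers ranked the cells. Ranked by Cdx2 alone, 451 of 5693 genes (7.92%) were higher and 432 (7.59%) lower in the 11 highest cells, and ranked by Eomes alone, 537 of 5709 (9.41%) were higher and 349 (6.11%) lower. The rankings share 4 highest and 3 lowest cells, and 7 cells are at opposite ends, so their values are given side by side. Dnmt1 had a log2 ratio of -1.57 in the Cdx2 ranking and 1.89 in the Eomes ranking. Tjp1 had -1.95 and 1.33, and Uhrf1 had 2.60 and -0.80. Slc2a1, a glucose transporter in the mural list, had 0.29 and 2.90, Bhlhe40 had -0.30 and 1.32, and Krt7, a keratin of that list, had -1.06 and 0.60. Plin3 had 1.25 in both rankings, Rufy3 2.86 and 3.45, and Pkp2 -1.29 and -1.52. These last 3 genes had the same direction by either marker, while Dnmt1 and Tjp1 were apart in opposite directions.

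**Figure D5:**
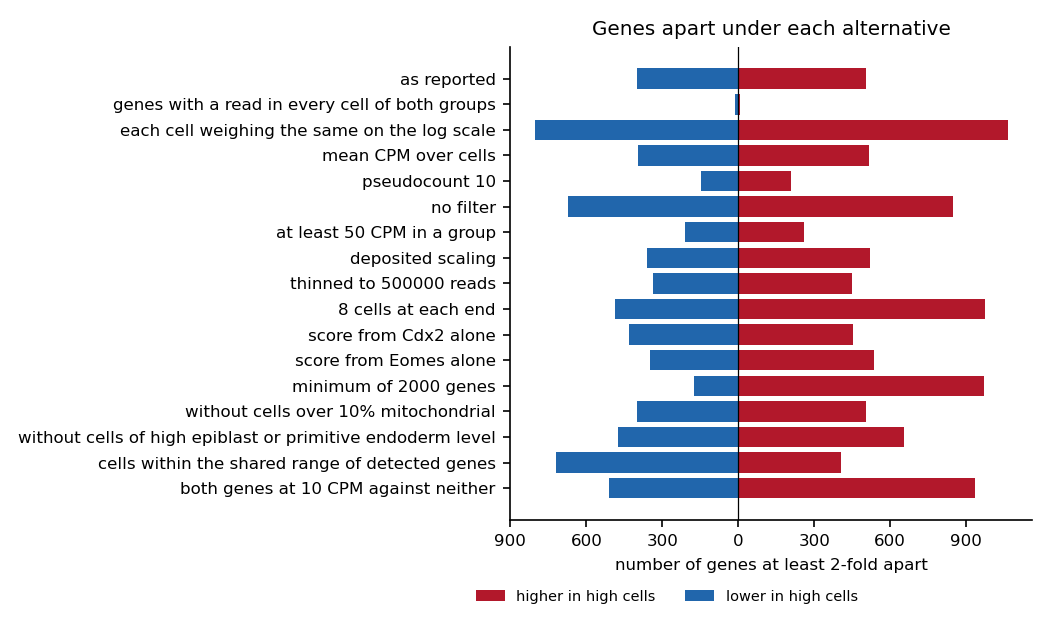
Number of genes at least 2-fold higher (right of 0) and lower (left of 0) in high cells, as reported and under each other processing choice. The counts run from 7 and 13 among genes read in every cell to 1066 and 803 when the cell means of log2(CPM + 1) alone set the call.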

How the data were processed

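The authors deposited 1 expression table for the single cells, in which each value is a depth-scaled signal, a read count over a factor of its cell. Division by the smallest value above 0 of the cell restored whole reads, within 0.01, for 100% of values. Tools listed without role or order, per the submitters' processing notes, include STAR 2.7.3a and featureCounts 2.0.0, with the build mm10. The sources used here do not say how the 13927 listed genes were chosen. Without molecular identifiers, reads include PCR copies.

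From the recovered reads, CPM was computed per cell and over the reads summed in each group, with a pseudocount of 1 that understates the change of low genes. No count model was fitted, because a group without embryo labels counts as 1 sample. Symbols came from the table, with GRCm38.p6 RefSeq tables for coordinates and promoters. Reads shared between near-identical genes cannot be assigned. Besides members of 24 fixed lists, 1 of them Y-linked and X-linked genes, the genes named are those at the top 15 and bottom 15 places by difference of cell means among genes apart, without predicted genes. Members, lists and thresholds were chosen with earlier results of these data known. The calculation was tested on simulated counts. Analyses used Python 3.11.15, numpy 2.4.6, pandas 2.3.3, scipy 1.17.1 and matplotlib 3.10.9. The alternatives changed the weighting of cells, the pseudocount, the filter, the scaling, the depth, the score, the number of cells and which cells entered. The other samples of the series were not used here, and 1 gene apart with a read in every cell is not reported.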

Additional observations from a re-analysis of the deposited data

Results flagged for a closer look

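Cells outside the comparison also carried the 2 marker genes, above the level in nearly all RFP cells. Of the 6 GFP cells below 4000 detected genes, GFP cell 4 held 91.2 CPM of Cdx2 and GFP cell 14 held 53.6 CPM of Cdx2, while GFP cell 25 held 218 CPM of Eomes. With 3815, 3800.0 and 3452 detected genes they lay below the minimum, and their trophectoderm list levels were 5.33, 5.82 and 4.79. The highest Cdx2 level in any RFP cell was 3.93 CPM.

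Among the RFP cells, cell 22 held 241 CPM of Eomes, from 492 reads, and the next RFP cell 4.40 CPM. The same cell had the highest Cdx2 level of the RFP cells, 3.93 CPM. It had 3657 detected genes and 8.07% mitochondrially encoded reads, with Krt8 at 13.7 CPM, Gata3 at 4.91 CPM and the epiblast gene Tdgf1 (listed as Cripto) at 27.5 CPM. Its trophectoderm and epiblast list levels were 2.07 and 1.79, beside medians of 0.956 and 4.57 over the RFP cells. The lowest trophectoderm level of a ranked host cell was 5.82. The 2 lists differ in their usual level, so their values in this cell are not compared with each other.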

How the results depend on the processing

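No paired analysis was possible because the numbers in the labels name single cells, and the values come from no test. The counts of higher and lower genes, 506 and 400, became 1066 and 803 when the cell means of log2(CPM + 1) alone set the call, 207 and 147 at a pseudocount of 10, 849 and 672 with no filter and 260 and 212 with at least 50 CPM in a group. They became 968 and 176 with a minimum of 2000 genes, where the median log2 ratio of all genes that passed was 0.12. The higher count became 972 with 8 cells at each end, beside 486 lower, and the lower count 720 within the shared range of detected genes, beside 404 higher. Of 2 choices added after seeing the data, cells with 10 CPM of both genes against cells with neither gave 934 higher and 509 lower, and genes with a read in every cell gave 7 and 13. Mean CPM over cells, the deposited scaling, thinning to 500000 reads, either gene alone and leaving out lineage-positive cells kept both counts within 1.5 times. For either gene alone this holds for the counts and not for the genes. Ranked by Cdx2 alone, 182 of the 506 higher and 140 of the 400 lower genes were still apart, and ranked by Eomes alone 190 and 125. No compared cell was over 10% mitochondrial. With 1 cell left out, 462 to 650 genes were higher and 377 to 506 lower. The medians of the trophectoderm, polar and mural lists ranged from -0.04 to 0.36, -0.28 to 0.39 and -0.53 to 0.60 over the choices, so all 3 changed sign, and the mural median turned from -0.35 to 0.60 with the score from Eomes alone.

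Of the 68 genes apart that are named, 10 stayed apart under all 15 choices other than the restriction to genes with a read in every cell: Armc8, Trmt2a, Tmx1, Rufy3, Dhx8, Plin3, Sec23ip, Ptprk, Rad51ap1 and Pkp2. Among the 15 choices, no filter, the cell means alone and the mitochondrial limit could not end a call. The log2 ratio changed sign with the score from Cdx2 alone in Slc19a2 (-0.68), Nudcd1 (-0.11), Rad54b (-0.20), Zfp51 (0.20), Trp53inp1 (0.0673), Dnmt1 (-1.57), Sfmbt2 (-0.0628), Purb (0.0771) and Ankrd11 (-0.0485). It changed sign with the score from Eomes alone in Rad54b (-0.51), Pdpn (0.0239), Yipf5 (0.66), Tjp1 (1.33), Lgmn (-0.26), Ldha (0.15), Uhrf1 (-0.80) and Safb (-0.22). The causes were not tested. The limits are that cells may share embryos, that a cell listed at 0 may hold RNA lost before amplification, and that counting intervals do not cover the spread between cells.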
